A study of Mus musculus with 6 samples.

Results

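The genes described here are 49 genes of amino acid breakdown in the mouse kidney. They were chosen by name as enzymes of branched-chain amino acid degradation and of lysine, tryptophan, tyrosine, proline, glycine, sulfur and threonine metabolism. All 49 were found among the 23276 gene symbols of the deposited transcript table, and each was represented by its entry with the highest mean level. The libraries were made from total RNA of whole kidneys of 6 mice aged 22 days according to the labels. All 6 mice carried a Ksp/Cre transgene, in which the promoter of a cadherin of kidney tubules drives Cre recombinase, and a floxed *Pkd1* allele over the RC allele of *Pkd1*. The 3 kidneys of the *Pkd1* F/RC SKO group had this genotype alone (KspCre; Pkd1 F/RC), and the 3 kidneys of the *Pkd1* F/RC DKO group carried in addition 2 floxed copies of the miR-17~92 cluster (miR17~92 F/F). The study asked which mRNAs differ between these groups. That comparison is not given here, because values of single kidneys are not in the table and its columns of fold change and test statistics, which are the authors' own comparison, were not used. What follows is the mean level of each gene over both groups, as the authors computed it. This value has no replicate error and the sequencing depth behind it is unknown, so differences in level between genes are given as sizes without a test.

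Breakdown of the branched-chain amino acids leucine, isoleucine and valine begins with a reversible transamination in which the amino group is passed on. The branched-chain keto acid dehydrogenase, a mitochondrial complex that a kinase switches off and a phosphatase switches on, then commits the carbon skeletons to oxidation. Separate arms lead from there to acetyl-CoA, acetoacetate or, through propionate, to the TCA cycle. The kidney also oxidises other amino acids, mostly in the proximal tubule, the nephron segment that reabsorbs them from the filtrate. In bulk kidney RNA, fewer cells of a type and less RNA per cell cannot be told apart.

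The tissue label was checked against marker genes. *Slc34a1*, the proximal tubule phosphate transporter, stood at a mean of 1030 CPM (counts scaled to the size of the library and not divided by transcript length), *Umod*, the uromodulin of the thick ascending limb, at 1022 CPM and *Aqp2*, the water channel of the collecting duct, at 77.7 CPM. All 6 proximal tubule markers stood between 81.8 and 1030 CPM, and the 5 markers of the thick ascending limb, distal convoluted tubule and collecting duct between 77.7 and 1022 CPM. *Alb*, the albumin gene of hepatocytes, was at 13.4 CPM, and *Apoa1*, another liver gene, had a mean of 0.49 on the log2 CPM scale. The leukocyte markers *Ptprc* and *Cd68* were at 8.20 and 5.19 CPM and the podocyte marker *Nphs1* at 12.97 CPM. Since many of these enzymes are best known from the liver and the proximal tubule, these values are the ones to read beside their levels, and the part of any cell type in them was not tested. The mean levels of *Pkd1* and of *Mir17hg*, the host transcript of the cluster, were 31.8 and 4.21 CPM, and as means over both groups they do not check the genotype labels.

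The members were abundant in these kidneys. Of the 49, 47 had a mean of at least 1 CPM (95.9%), against 13001 of all 23276 genes (55.9%). Their median was 38.2 CPM, with the middle of the list running from 22.0 CPM at the lower quartile to 61.4 CPM at the upper, whereas the median of all genes was 2.36 CPM and 12.6 CPM was the median over genes that reached 1 CPM. A mean of at least 100 CPM was reached by 6 members (12.2%) and by 595 of all genes (2.56%). These 6 were *Aadat*, *Aldh6a1*, *Aldh4a1*, *Abat*, *Hibadh* and *Pccb*. *Aadat* had 545 CPM, the 26th highest level of all genes listed, and *Aldh6a1* had 279 CPM. The members below 1 CPM were *Pycr1*, at 0.404 CPM, and *Tdh*, at 0.0307 CPM. The lowest value in the table is 0.0263 CPM, so *Tdh* was hardly detected.

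**Figure D1:**
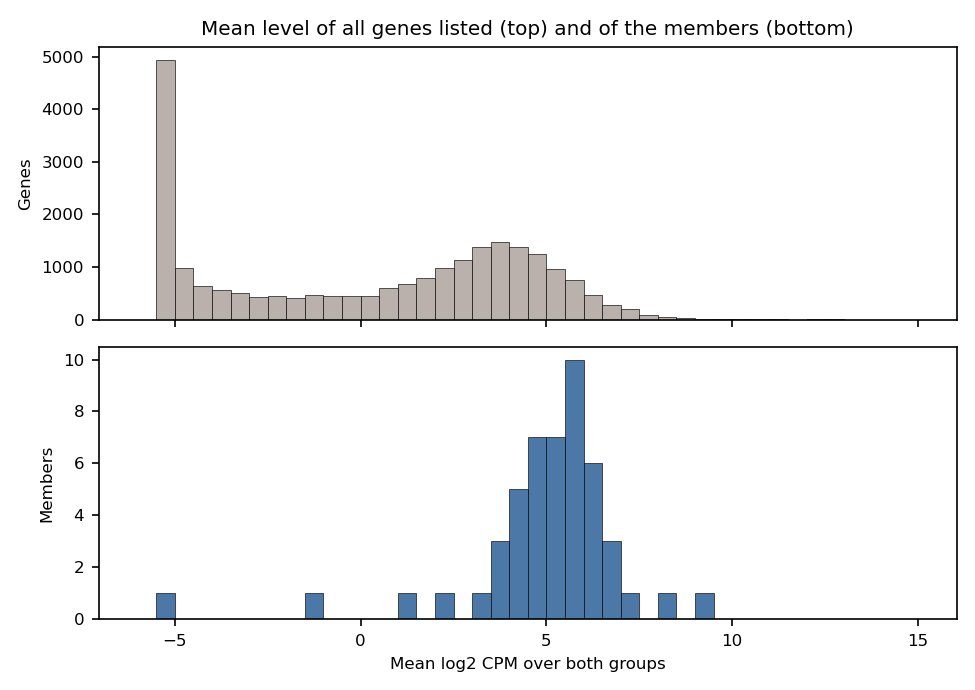
Number of genes by mean level over both groups (log2 CPM, bins of 0.5), for the 23276 genes listed (top) and the 49 members (bottom). Most members sit above the bulk of all genes, around their median of 5.25 on the log2 scale, while *Pycr1* and *Tdh* sit apart at -1.31 and -5.02.

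Levels of different genes were compared per kilobase of transcript, since a longer transcript yields more reads. On this scale the median of the members was 15.7 CPM per kb, against 1.503 CPM per kb over the 20167 genes with a known length. The median member lay above 90.7% of those genes. This median, and that of the glycine and one-carbon enzymes, is the value of *Amt*, which had 32.6 CPM in its highest and 16.2 CPM in its RefSeq entry. The pathways were not alike. The tyrosine enzymes had the highest median, 51.0 CPM per kb, which is 1.70 above the median of all members on the log2 scale, followed by the lysine enzymes at 37.8 CPM per kb and the sulfur enzymes at 33.8 CPM per kb. The propionate arm had a median of 26.8 CPM per kb, the isoleucine and valine arm 17.1, the proline and hydroxyproline enzymes 16.9, the leucine arm 16.0 and the glycine and one-carbon enzymes 15.7. Below the median of the members lay the tryptophan enzymes, at 11.0 CPM per kb, the first steps of the branched-chain route with their regulators, at 9.46 CPM per kb, and the enzymes that take methyl groups from choline products, at 7.36 CPM per kb. With 3 to 7 genes in each of these pathways and no replicate values, this order is not resolved. With means in place of medians the lysine enzymes came first (2.08 above all members on the log2 scale, against 1.63 for tyrosine), and without division by length the isoleucine and valine arm did (1.22 against 1.15 for tyrosine).

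**Figure D2:**
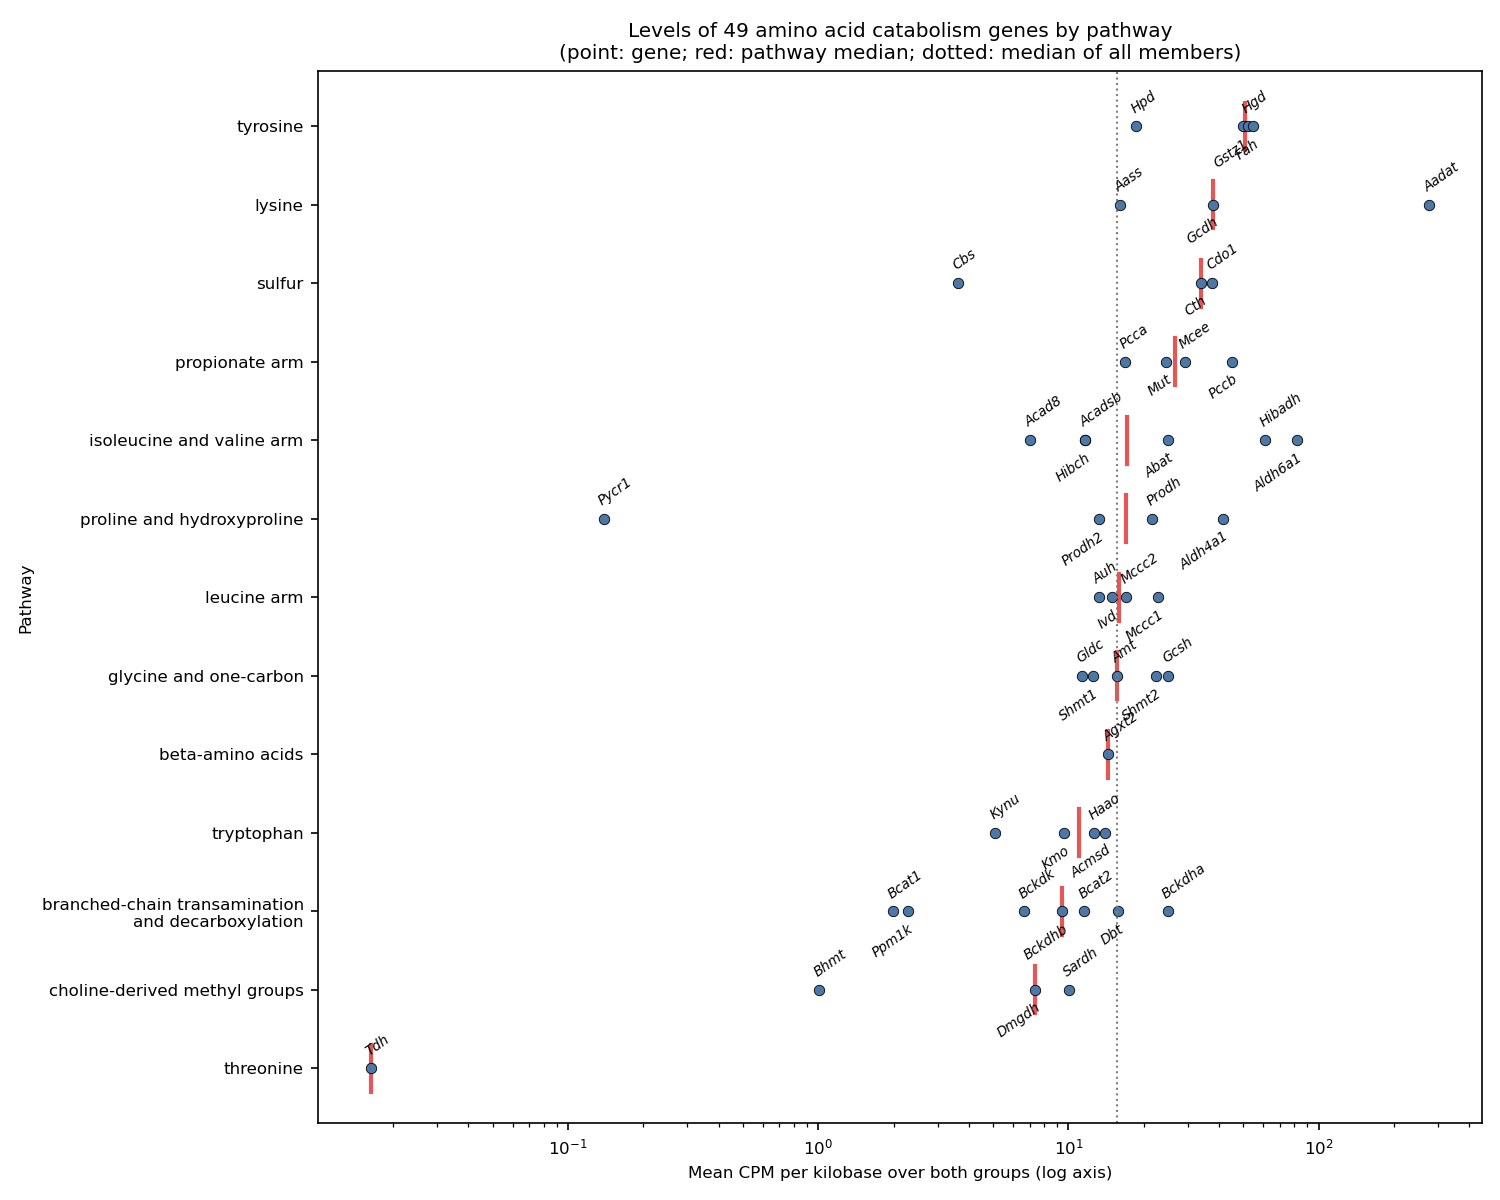
Mean CPM per kilobase over both groups (log axis) of each of the 49 members, 1 point per gene, by pathway, with the pathway median in red and the median of all members (15.7 CPM per kb) dotted. *Aadat* is the farthest to the right at 276 CPM per kb and *Tdh* the farthest to the left at 0.0163 CPM per kb, and the spread inside a pathway is often wider than that between pathway medians.

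All 21 members of the branched-chain route and its propionate arm were detected at 1 CPM or more. For the first step, transamination, the mitochondrial isoform *Bcat2* stood at 11.6 CPM per kb and the cytosolic isoform *Bcat1* at 1.99 CPM per kb, so that *Bcat2* was 5.81 times as abundant per length. The subunits of the keto acid dehydrogenase were unequal. *Bckdha*, the alpha subunit of its decarboxylase, had 24.9 CPM per kb and its partner *Bckdhb*, the beta subunit, 9.46 CPM per kb, a ratio of 2.63. *Dbt*, the core transacylase, lay between them at 15.8 CPM per kb. *Dld*, the dehydrogenase subunit that this complex shares with other mitochondrial complexes, was at 61.3 CPM per kb. *Bckdk*, the kinase that inactivates the complex, had 6.67 CPM per kb and *Ppm1k*, the phosphatase that reactivates it, 2.28 CPM per kb, the kinase transcript being 2.93 times as abundant per length. *Slc25a44*, a mitochondrial carrier of branched-chain amino acids, had 5.40 CPM per kb.

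With the highest entry of each gene, the leucine arm was the most even of the branched-chain route. *Ivd*, isovaleryl-CoA dehydrogenase, stood at 15.0 CPM per kb. The subunits of methylcrotonyl-CoA carboxylase, *Mccc1* and *Mccc2*, stood at 22.8 and 17.0 CPM per kb, a ratio of 1.34. *Auh*, the hydratase after it, had 13.2 CPM per kb. From the lowest to the highest member the arm spanned a ratio of 1.73. This rests on the highest entry of *Auh*, at 17.4 CPM. Its lowest entry had 3.70 CPM, with which the arm would be less even.

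The arm of isoleucine and valine spanned a ratio of 11.7. Its acyl-CoA dehydrogenases stood below the median of the members, *Acadsb*, which acts on the isoleucine product, at 11.7 CPM per kb and *Acad8*, which acts on the valine product, at 7.03 CPM per kb. *Hibch*, the hydrolase of valine breakdown, was at 11.7 CPM per kb as well. The enzymes after it were higher, with *Hibadh*, 3-hydroxyisobutyrate dehydrogenase, at 61.2 CPM per kb and *Aldh6a1*, methylmalonate semialdehyde dehydrogenase, at 82.1 CPM per kb. *Aldh6a1* also serves thymine breakdown, and its level lay above 98.6% of the genes with a known length. *Abat*, the transaminase of gamma-aminobutyrate and beta-alanine, stood at 25.1 CPM per kb.

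In the propionate arm the subunits of propionyl-CoA carboxylase differed, *Pccb* at 45.0 and *Pcca* at 16.9 CPM per kb, a ratio of 2.66. *Mcee*, the epimerase that follows, had 29.1 CPM per kb, and *Mut*, the mutase that forms succinyl-CoA, had 24.6 CPM per kb. Complexes whose subunits work together thus did not have equal transcript levels in the dehydrogenase and in this carboxylase, while those of methylcrotonyl-CoA carboxylase were closer.

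**Figure D3:**
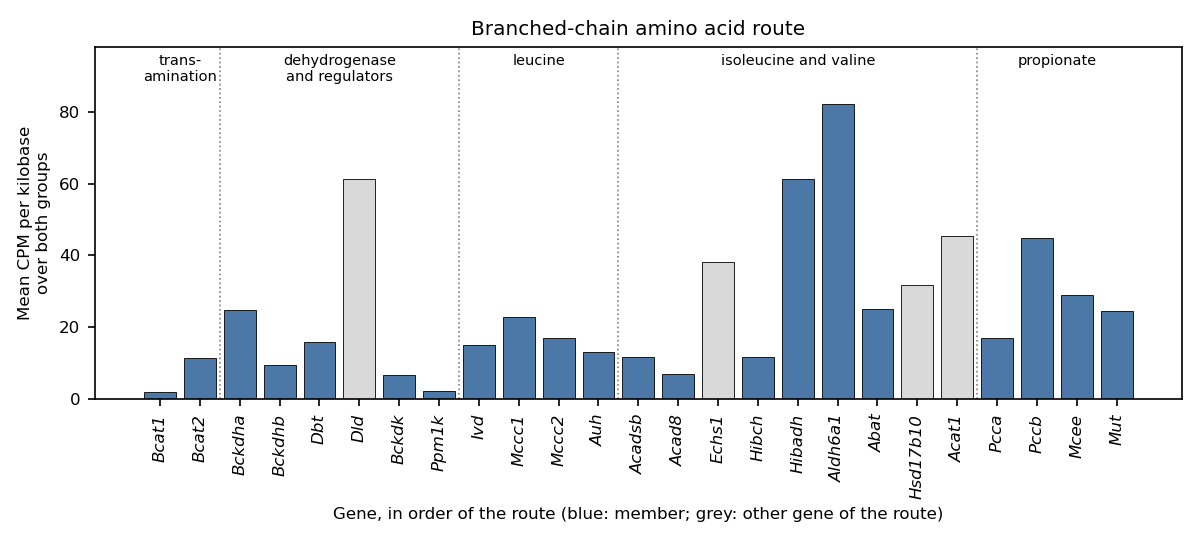
Mean CPM per kilobase over both groups, from 0, of genes in the order of the branched-chain route (blue, members; grey, other genes of the route). The tallest bars are *Aldh6a1* (82.1), *Dld* (61.3) and *Hibadh* (61.2), and the shortest are *Bcat1* (1.99) and *Ppm1k* (2.28).

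Lysine breakdown by way of saccharopine held the most abundant member. *Aass*, the bifunctional enzyme that opens the route, had 16.1 CPM per kb, and *Aldh7a1*, which follows it, 16.9 CPM per kb. *Aadat*, the transaminase that acts on aminoadipate and also on kynurenine, had 276 CPM per kb, 17.1 times the level of *Aass* and above 99.8% of the genes with a known length. *Dhtkd1*, the next dehydrogenase component, had only 1.28 CPM per kb, whereas *Gcdh*, glutaryl-CoA dehydrogenase, had 37.8 CPM per kb. *Pipox*, of the peroxisomal branch, had 27.9 CPM per kb.

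The tryptophan enzymes form the kynurenine pathway, which breaks down tryptophan or turns it into NAD precursors. Its entry enzymes were all below 1 CPM, *Tdo2* at 0.144 CPM, *Ido1* at 0.0816 CPM and *Ido2* at 0.369 CPM. The downstream members were all present. *Kmo*, kynurenine monooxygenase, had 9.59 CPM per kb, *Kynu*, kynureninase, 5.10 CPM per kb and *Haao*, the dioxygenase that forms the precursor of quinolinate, 12.7 CPM per kb. *Acmsd*, which diverts that precursor from NAD synthesis towards oxidation, had 14.1 CPM per kb. *Qprt*, which uses quinolinate for NAD synthesis, had 6.55 CPM per kb, a ratio of 2.14 for *Acmsd* over *Qprt*. That ratio rests on the highest entries, both assembled. For *Acmsd* the highest entry had 38.2 CPM, the RefSeq entry 31.3 CPM and the lowest 11.2 CPM. For *Qprt* the highest had 13.4 CPM and the lowest 9.85 CPM.

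The tyrosine route was also low at its transaminase. *Tat*, tyrosine aminotransferase, was at 0.0984 CPM per kb. *Hpd*, the dioxygenase after it, had 18.7 CPM per kb. The last 3 enzymes stood close together, *Hgd*, homogentisate dioxygenase, at 52.2, *Gstz1*, maleylacetoacetate isomerase, at 49.8 and *Fah*, fumarylacetoacetase, at 54.7 CPM per kb. *Fah* was 2.92 times as abundant per length as *Hpd*.

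**Figure D4:**
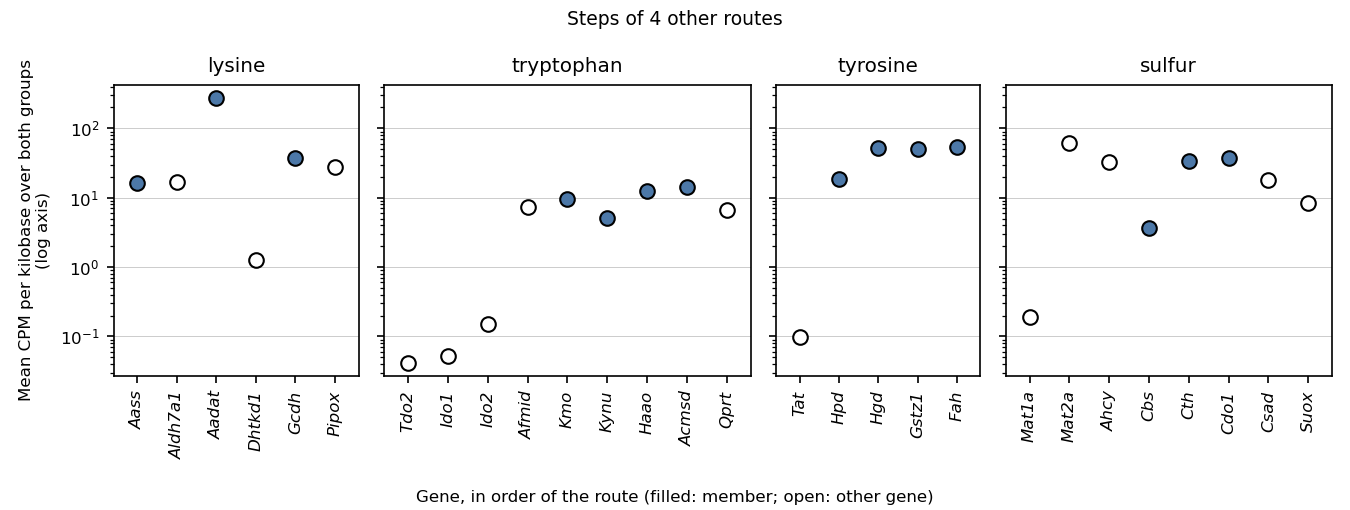
Mean CPM per kilobase over both groups (log axis) of genes in the order of the lysine, tryptophan, tyrosine and sulfur routes (filled, members; open, other genes). *Tdo2*, *Ido1*, *Ido2*, *Tat* and *Mat1a* all lie below 0.2 CPM per kb, far under the members of the same routes, and *Aadat* lies at the top with 276 CPM per kb.

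Proline and hydroxyproline are oxidised by related enzymes. *Prodh*, proline dehydrogenase, had 21.7 CPM per kb and *Prodh2*, hydroxyproline dehydrogenase, 13.2 CPM per kb. *Aldh4a1*, which serves both routes, had 41.5 CPM per kb, and *Hoga1*, the last enzyme of hydroxyproline breakdown, 30.3 CPM per kb. The highest entry of *Hoga1* had 50.6 CPM and its lowest 10.6 CPM. *Pycr1* runs in the other direction, making proline, and had 0.139 CPM per kb. *Pycrl*, another reductase of proline synthesis, had 7.45 CPM per kb. *Oat*, ornithine aminotransferase, had 62.1 CPM per kb.

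The glycine cleavage system, a mitochondrial complex that releases ammonia and carbon dioxide from glycine, was present in all its parts. *Gldc*, its decarboxylase, had 11.4 CPM per kb, *Amt*, its aminomethyltransferase, 15.7 CPM per kb and *Gcsh*, its lipoyl carrier, 25.02 CPM per kb. The value of *Amt* rests on an assembled transcript. With its RefSeq entry it had 16.2 CPM in place of 32.6 CPM. Of the serine hydroxymethyltransferases, the mitochondrial *Shmt2* stood at 22.5 and the cytosolic *Shmt1* at 12.53 CPM per kb. *Gatm*, which uses glycine for creatine synthesis, had 196 CPM per kb.

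The choline-derived methyl groups pass through *Bhmt*, *Dmgdh* and *Sardh* in turn. *Bhmt*, which remethylates homocysteine with betaine, had 1.01 CPM per kb, *Dmgdh*, dimethylglycine dehydrogenase, 7.36 CPM per kb and *Sardh*, sarcosine dehydrogenase, 10.04 CPM per kb. *Bhmt* and *Dmgdh* lie on opposite strands of chromosome 13 of mm10 (assembly GRCm38) and are read away from each other. *Bhmt* runs from 93616891 to 93637758 and *Dmgdh* from 93674436 to 93752823, with 36677 bases between them. Whether another gene lies there is not shown here.

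Among the sulfur enzymes *Cbs*, which joins homocysteine to serine, had 3.62 CPM per kb. *Cth*, which releases cysteine from the product, had 33.8 CPM per kb, 9.34 times the level of *Cbs*. *Cdo1*, cysteine dioxygenase, had 37.5 CPM per kb. Of the genes that make S-adenosylmethionine, *Mat2a* stood at 62.3 and *Mat1a* at 0.189 CPM per kb. *Tdh*, threonine dehydrogenase, had 0.0163 CPM per kb, and *Gcat*, which acts on its product, had 5.35 CPM per kb. *Agxt2*, a mitochondrial transaminase of beta-amino acids and dimethylarginines, had 14.5 CPM per kb. Over the 42 other genes of these routes, 33 had at least 1 CPM and the median was 14.2 CPM. Histidine breakdown was low, with *Hal*, its first enzyme, at 0.0873 CPM and *Uroc1*, the next, at 3.49 CPM.

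Many genes were listed more than once. Entries of a gene overlap and may share reads, so agreement between them does not measure how precise a level is. The 49 members had 119 entries, 15 of them 1 entry each and 34 between 2 and 7. For 22 of these 34 the highest and the lowest entry were within 1.5-fold, and for 9 they differed by more than 2-fold. The widest was *Amt*, whose lowest entry had 0.537 CPM. *Bcat2* followed, with 24.1 CPM in its highest and 4.69 CPM in its lowest entry. For 16 members the highest entry was a transcript assembled from the reads, and its level was divided by the length of the gene's RefSeq transcript.

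The members lie on 19 chromosomes. Promoter windows of RefSeq (assembly GRCm38.p6, from 250 bases before to 50 after a start site) were at hand for 42 of the 49 members. CAAAGTCCA, a core of sites for the nuclear receptor HNF4, was found on either strand in the windows of 2 of the 42 (4.76%), against 0.555% of 27025 genes with a window. They belong to *Aadat*, the most abundant member, and to *Agxt2*, and are shown in the direction of the gene with the motif or its reverse complement in capitals. Their positions are chr8:60506042-60506070 (plus strand) for *Aadat* and chr15:10358502-10358530 (plus strand) for *Agxt2*.
Aadat: cctctgtggaTGGACTTTGtcccttctgc
Agxt2: cttctaatatCAAAGTCCAgtccagtcag
The motif begins 72 bases before the start site of the window in *Aadat* and 21 bases before that of the window from 10358283 in *Agxt2*. *Agxt2* also has a window from 10358329, with a later start site. The annotated gene start is at chr8:60505843 in *Aadat*, ahead of the motif, and at chr15:10358516 in *Agxt2*, inside it. CCAAT was found in 61.9% of the members with a window and in 41.1% of all genes, AGGTCA, the half-site of several nuclear receptors, in 35.7% and 18.1%, TATAAA in 9.52% and 15.7%, and GTTAAT, the half-site of HNF1, in 7.14% and 8.24%, on either strand. A direct repeat of AGGTCA with 1 base between the copies, the kind bound by PPAR and RXR, was in no window of a member and in 0.0481% of all genes. An exact match this rare would hardly be found among 42 genes, so its absence there does not show a lack of PPAR sites. These matches are descriptions of the letters in these windows and were not tested.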

How the data were processed

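Total RNA of 6 mouse kidneys, 3 labelled SKO and 3 labelled DKO, was sequenced from strand-specific libraries. Reads were trimmed by the authors and mapped with TopHat2 2.0.12 to mm10 and the iGenomes annotation, and alignments with a mapping quality below 10 were removed. The submitters' processing notes also name Cufflinks, featureCounts of Subread 1.4.6 and edgeR 3.2.4. The deposited log2 values are edgeR's mean abundance of each of 54721 transcripts over all samples, on the log2 CPM scale. They were computed by the authors and are not divided by length. The same table holds the authors' log2 fold changes, likelihood ratios, p-values and adjusted p-values between the groups, and these were not used. A test on counts was planned in case the file held them, and none was run. The values of all entries add up to 1007270 CPM, and 9317 entries without a gene symbol hold 7.06% of that sum. CPM are scaled to the total of the counts, so this sum does not show how reads were assigned. Entries of a gene overlap, so a read may have been counted once for each of them. In that case the levels are shares of counts and not of reads.

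A gene was represented by its entry with the highest mean. Levels per kilobase used the length of the GENCODE M21 transcript (GRCm38, the same assembly as mm10) paired with the highest RefSeq mRNA entry of the gene, 828 to 6081 bases in the members. Percentiles are the share of genes with a lower value. The step that picks entries was tested on simulated data, and the step that ranks genes on a run of whole numbers. The matching of lengths was not part of these tests. All members are named, with other genes of their routes and markers from written lists, a few of which are not reported here. Members and lists were chosen with earlier results of these data known. Python 3.11.15, numpy 2.4.6, pandas 2.3.3 and matplotlib 3.10.9 were used.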

Additional observations from a re-analysis of the deposited data

How the results depend on the processing

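No spread between replicates was at hand, so a level was said to have moved when it changed by more than 1.5-fold. The highest RefSeq mRNA entry was then used in place of the highest entry of any kind. Within that limit stayed 48 of the 49 member levels and all 11 pathway medians with 3 or more genes. The exception was *Amt* (log2 CPM 4.02 in place of 5.03). This swap could change only the 16 members whose highest entry was assembled. With the median over a gene's entries, 46 of the 49 member levels stayed, but the 15 members with 1 entry could not move. *Auh*, *Acadsb* and *Amt* moved, to 3.01, 5.46 and 4.02 on the log2 scale. The median percentile of the members was 89.96 among all genes and 84.5 among genes with at least 1 CPM. Pathway levels are given relative to all members on the log2 scale. With the mean in place of the median, the isoleucine and valine arm moved from 0.13 to 0.77, lysine from 1.27 to 2.08, proline and hydroxyproline from 0.11 to -1.03 and sulfur from 1.11 to 0.35. Tyrosine, at 1.70 the highest pathway with medians, had 1.63 with means, below lysine. Without division by length, the isoleucine and valine arm moved to 1.22, above tyrosine at 1.15. Other normalizations, count filters and leaving out each sample were not run, since they need values per sample. No paired analysis was possible because no column belongs to a single kidney. Precision is limited by the lack of values per kidney.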
